A study of Saccharomyces cerevisiae with 31 samples.

Results

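The genes described here are the 3 pyruvate decarboxylase genes PDC1, PDC5 and PDC6 and the 5 alcohol dehydrogenase genes ADH1 to ADH5 of budding yeast, *Saccharomyces cerevisiae*. They were chosen by name, as the enzymes of the final pair of steps of ethanol fermentation, with earlier results of these data known. They make up 8 of the 6477 genes of the annotation used. RNA was compared between 3 mutants of SPT6, a histone chaperone and transcription elongation factor, and the wild type (WT): spt6-1004, a temperature-sensitive allele, spt6-S8A, in which serines phosphorylated by casein kinase 2 are changed to alanine, and spt6-S8E, in which they are changed to glutamate. Each of the 4 genotypes has 3 RNA libraries, from cultures in rich glucose medium (YPD) at 30 °C, started at an optical density of 0.2 and harvested at 1. No other treatment is given, and each genotype stands for 1 allele. SPT6 itself was listed for none of the mutants, and its RNA level is no check of alleles that change the protein. Whether the 3 libraries are separate cultures is not in the labels, so the spread behind each p-value may be technical.

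Pyruvate decarboxylase splits pyruvate into acetaldehyde and carbon dioxide, and alcohol dehydrogenase reduces acetaldehyde to ethanol, which regenerates the NAD+ that glycolysis consumes. Yeast growing on glucose carries this flux mainly through Pdc1 and Adh1. The other isoforms are used less on glucose: PDC5 is known to be expressed strongly when PDC1 is lost, PDC6 when sulfur is scarce, ADH2 when glucose runs out and ethanol is oxidised back to acetaldehyde, and ADH4 when zinc is scarce. Adh3 is the mitochondrial enzyme, and Adh5 is a minor isoform.

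In spt6-1004 the main glucose isoforms PDC1 and ADH1 fell, and so did the mitochondrial ADH3. The called isoforms that are normally low on glucose rose. PDC1, ADH1 and ADH3 were lower than in WT by 2.75-fold, 1.66-fold and 1.64-fold in the authors' deposited table. PDC6, ADH2, PDC5 and ADH4 were higher than in WT by 11.9-fold, 7.78-fold, 3.59-fold and 3.28-fold in the authors' deposited table. ADH5 was listed for no mutant. None of the 8 genes was listed for spt6-S8A or spt6-S8E. The background was 5.34% of the 431 genes adjusted for spt6-S8A, of which PDC1, ADH1 and ADH3 were taken to be members by their base means and the 4 risen genes were not. For spt6-S8E it was 0.0176% of 5668.

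A gene is called here when the authors' deposited table lists it for that mutant, which means a DESeq2 adjusted p under 0.05. That table listed 7 of the 8 genes for spt6-1004, against 12.2% of the 5668 genes adjusted. Of the 8 genes, 4 were called higher, against 5.63% of all genes adjusted, and 3 were called lower, against 6.62%. With an adjusted p under 0.01 the counts were 4 higher (background 3.62%) and 2 lower (4.55%). With a change of at least 2-fold they were 4 higher (5.2%) and 1 lower (5.42%), and with a Bonferroni adjustment 3 higher (2.21%) and 2 lower (2.31%). The median log2 fold change of the 7 called genes was 1.71, which is the value of ADH4. With 4 higher and 3 lower, it describes no shift of the set as a whole. The median of all 694 genes called in spt6-1004 was -0.83. In RNA of a whole culture, a change in every cell and a change in the share of cells that express a gene cannot be told apart. The tables hold a base mean over all libraries and a fold change with its standard error (SE) for each gene, and values per library were not analysed here.

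**Figure D1:**
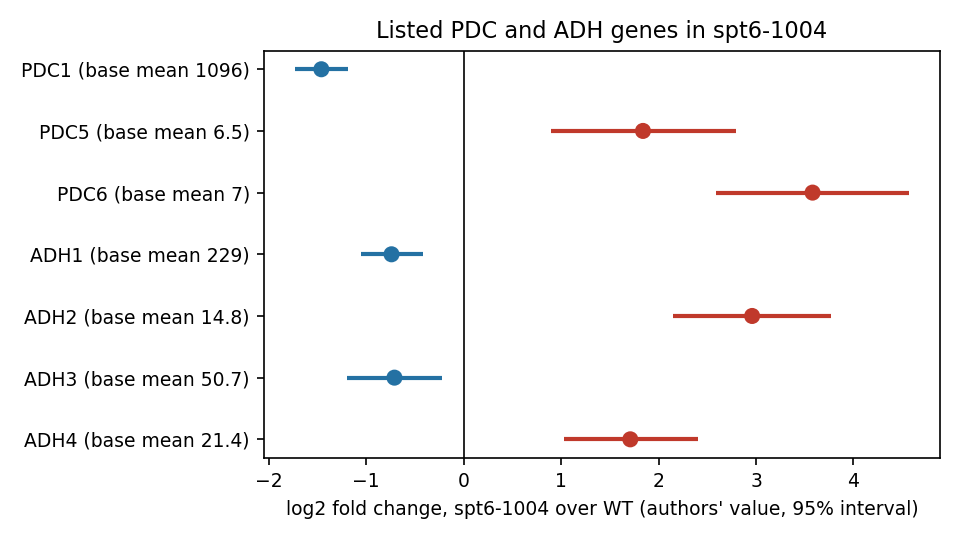
Log2 fold change of spt6-1004 over WT (x axis) for the 7 called genes, one per row with its base mean over 12 libraries. Points are the authors' values and lines are 95% intervals from the deposited SE. The 3 intervals of PDC1, ADH1 and ADH3 lie below 0, and the 4 of PDC5, PDC6, ADH2 and ADH4 lie above it.

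PDC1 (YLR044C) encodes the main pyruvate decarboxylase and lies on chromosome XII from 232390 to 234081 (R64, as are all positions below). The authors' deposited table gave it a log2 fold change of -1.46 (SE 0.14, adjusted p = 1.51e-23, DESeq2, 3 libraries each). In the authors' deposited table no other of the 694 called genes had as high a base mean as its 1096. By size this fall was within the usual range: 65.9% of the 375 genes called lower fell by less.

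PDC5 (YLR134W) encodes a close copy of Pdc1 and lies on the same chromosome, XII, from 410723 to 412414. The authors' deposited table put its log2 fold change at 1.84 (SE 0.48, adjusted p = 0.00203, DESeq2, 3 libraries each). The base mean was 6.5, a total of 78 over the 12 libraries, so this value has a wide interval, from 0.90 to 2.79. PDC5 had the lowest base mean of the 7 called genes, and its call did not pass a Bonferroni adjustment over the 5668 genes (Bonferroni-adjusted p = 0.75, from DESeq2).

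PDC6 (YGR087C) encodes the pyruvate decarboxylase that is scarcely used on glucose, and lies on chromosome VII from 651290 to 652981. The authors' deposited table gave PDC6 the largest increase of the 8 genes, at a log2 fold change of 3.58 (SE 0.50, adjusted p = 1.07e-10, DESeq2, 3 libraries each). It ranked 16 of the 319 genes called higher by size, although the authors' deposited table has its base mean at 7. PDC1 and its copies have close sequences and can share reads, so the values of PDC5 and PDC6 are uncertain to that extent.

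ADH1 (YOL086C), the main fermentative alcohol dehydrogenase gene, lies on chromosome XV from 159548 to 160594. In the authors' deposited table its log2 fold change was -0.74 (SE 0.16, adjusted p = 0.000137, DESeq2, 3 libraries each) at a base mean of 229. This fall was small for a called gene, since it ranked 366 by size among the 375 genes called lower. ADH3 (YMR083W), the mitochondrial enzyme's gene, lies on chromosome XIII from 434788 to 435915. For ADH3 the authors' deposited table has -0.71 (SE 0.25, adjusted p = 0.038, DESeq2, 3 libraries each) at a base mean of 50.7. ADH3 lay closest to the threshold of the 7 genes and was not called at an adjusted p under 0.01. The size of both falls depends on whether and how the authors scaled the libraries, which is not known.

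ADH2 (YMR303C) encodes the enzyme that oxidises ethanol and is a classic glucose-repressed gene. It lies on chromosome XIII from 873291 to 874337. In the authors' deposited table the log2 fold change was 2.96 (SE 0.42, adjusted p = 8.09e-11, DESeq2, 3 libraries each) at a base mean of 14.8. This increase was larger than that of 86.2% of the 319 genes called higher. ADH1 and ADH2 are close in sequence and can share reads too.

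ADH4 (YGL256W) encodes an alcohol dehydrogenase of another protein family than the rest, and lies near the left end of chromosome VII from 15159 to 16307. The authors' deposited table has it at a log2 fold change of 1.71 (SE 0.35, adjusted p = 2.81e-05, DESeq2, 3 libraries each) and a base mean of 21.4. ADH5 (YBR145W) lies on chromosome II from 533762 to 534817. As a gene outside the list, it had a p of at least 0.00613 in spt6-1004 if it entered the adjustment, so the size of its Wald statistic was no more than 2.74. Its fold change is not known.

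The genes that rose were those of low level and the genes that fell those of high level. Per kilobase of coding length, the base mean was 648 for PDC1, 219 for ADH1 and 44.9 for ADH3, the genes that fell. It was 18.6 for ADH4, 14.1 for ADH2, 4.14 for PDC6 and 3.84 for PDC5, the genes that rose. No level of a risen gene reached that of a fallen one on this scale, nor in base means undivided by length. The division takes base means to be read counts, and their unit is unknown. Level and direction went together over all called genes of spt6-1004 as well. Of the 352 with a base mean no higher than that of ADH4, 65.3% were higher. Of the 138 with a base mean at least that of ADH3, 72.5% were lower. At a base mean of at least 100 the share was smaller, with 63.3% of 49 genes lower. The part of level in the direction of the PDC and ADH genes was not tested. The base mean includes the spt6-1004 libraries, and so depends on the change itself.

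**Figure D2:**
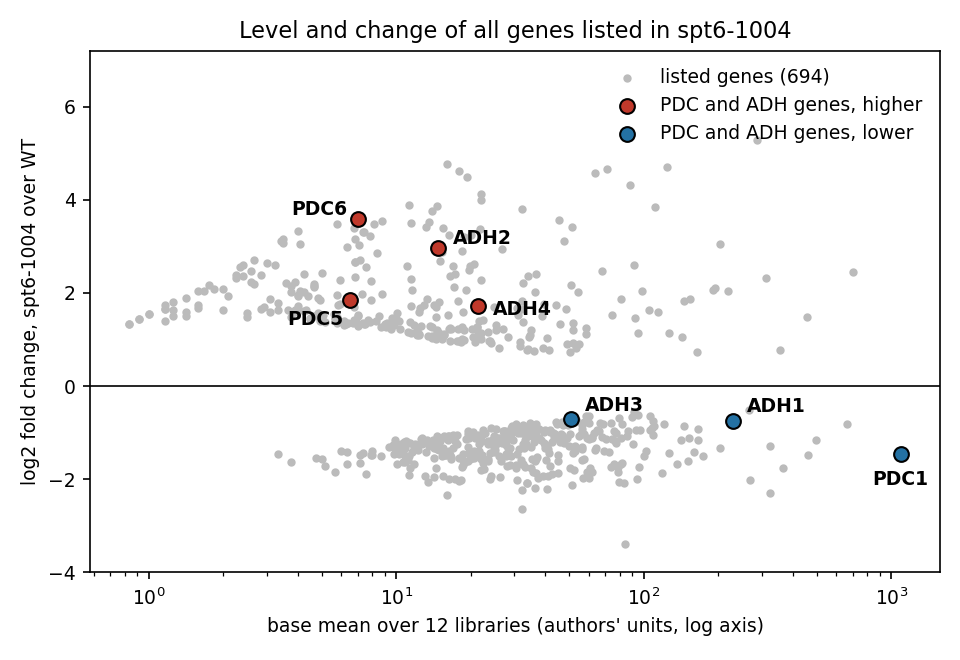
Base mean over 12 libraries (x axis, log scale) against the log2 fold change of spt6-1004 over WT (y axis) for all 694 called genes in grey, with the 7 called PDC and ADH genes in colour. The 4 risen genes lie at base means of 6.5 to 21.4, the 3 fallen genes at 50.7 to 1096, and PDC1 is the rightmost point.

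The isoforms of each enzyme were then set against each other within spt6-1004. The difference of 2 log2 fold changes is the change of the ratio of the 2 transcripts, and its 95% interval was taken from the deposited SEs with the errors of 2 genes taken as independent. The ratio of PDC6 to PDC1 was 32.8-fold higher in spt6-1004 than in WT, a difference of 5.04 on the log2 scale (95% interval 4.01 to 6.06). For PDC5 against PDC1 the difference was 3.30 (2.32 to 4.28). PDC6 also rose by more than PDC5, with a difference of 1.73 (0.37 to 3.10). The ratio of ADH2 to ADH1 was 13.0-fold higher in spt6-1004 than in WT, a difference of 3.70 (2.82 to 4.57). Fold changes of low genes may be shrunken towards 0, and these intervals make no allowance for that.

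ADH4 against ADH1 differed by 2.45 (1.69 to 3.20). The increase of ADH2 exceeded that of ADH4 by 1.25 (0.18 to 2.31), an interval that reached 0 if errors were correlated by -0.5. ADH3 and ADH1 differed by 0.02 (-0.56 to 0.61), so a difference of up to 1.52-fold between these falls is within the interval. Between the main genes of the enzyme pair, PDC1 fell by more than ADH1, with a difference of 0.72 for ADH1 minus PDC1 (95% interval 0.31 to 1.14). Of the 21 pairs of called genes, 17 had an interval that excluded 0. The pairs that did not were ADH3 with ADH1, PDC6 with ADH2, PDC5 with ADH4, and ADH2 with PDC5. PDC6 minus ADH2 was 0.62 (-0.66 to 1.90), so the largest increases of the 2 enzyme families were not distinguishable.

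**Figure D3:**
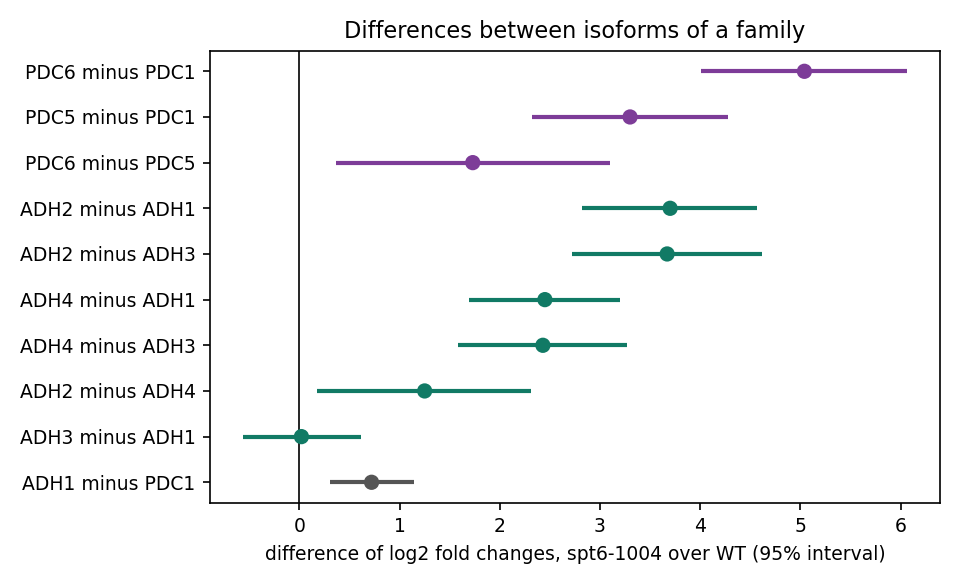
Difference between the log2 fold changes of 2 genes in spt6-1004 over WT (x axis) for the 9 pairs within a family and for ADH1 minus PDC1. Points are differences and lines 95% intervals with independent errors; PDC pairs are purple, ADH pairs green and the pair across families grey. The interval of ADH3 minus ADH1 is the one that crosses 0.

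The change of ratio did not put PDC5 and PDC6 above PDC1, or ADH2 above ADH1. No such limit was worked out for ADH4 or ADH5. PDC1, PDC5 and PDC6 all have a coding length of 1692 bp, so their levels can be compared directly in base mean units. Even if every unit of PDC5 and PDC6 came from the 3 spt6-1004 libraries, their mean there would be at most 26.0 and 28.0, together 54.0. PDC1 had a mean of at least 319 in spt6-1004, from its base mean, the lower end of its interval and the highest levels that spt6-S8A and spt6-S8E could have as unlisted comparisons. PDC1 thus remained at least 5.91 times the sum of its copies in spt6-1004, against at least 78.4 times in WT.

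ADH1 and ADH2 share a coding length of 1047 bp. ADH2 had a mean of at most 59.0 in spt6-1004, against at most 10.9 in WT. ADH1 had a mean of at least 98 in spt6-1004, against at least 192 in WT. ADH1 therefore stood at least 1.66 times above ADH2 in spt6-1004, against at least 17.7 times in WT. These limits take the deposited fold changes as ratios of mean levels, and those of low genes may be shrunken towards 0. If base means are read counts, 30 of the 694 called genes had an SE below what counting alone would give without shrinkage. All of these had base means up to 2.42, and none was among the 7 PDC and ADH genes. An SE above that value does not show that a fold change is free of shrinkage, so shrinkage of the 7 remains possible. The bounds on levels are limits and not estimates, so they give no test of a change in the ratio.

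The absence of all 8 genes from the lists of spt6-S8A and spt6-S8E does not show that they were unchanged there. The number of calls and of genes adjusted sets how large an estimated change could have gone unlisted. A gene among the 431 of spt6-S8A that is not listed had a Wald statistic no larger than 2.99 in size, and an unlisted gene of spt6-S8E one no larger than 4.29. With the SE of its spt6-1004 comparison, the estimated log2 fold change of PDC1 was at most 0.41 in spt6-S8A, in either direction. In spt6-S8E it was at most 0.59. The spt6-S8A limit takes the 431 genes to be those above the lowest base mean listed. The spt6-S8E limit takes the gene to be among the 5668. These limits hold for the estimate, and the true change could lie beyond them by its error. Both lie short of the value of -1.46 in spt6-1004 by at least 1.05 and 0.87, differences whose 95% intervals start at 0.66 and 0.48. PDC1 is therefore the gene for which these tables, as scaled by the authors, set spt6-1004 apart from both other mutants. Differences in depth between libraries may remain, and another scaling would move both margins.

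For ADH1 the limits were 0.49 in spt6-S8A and 0.70 in spt6-S8E, against -0.74 in spt6-1004, and the smallest difference allowed had an interval that included 0 in both. For ADH3 they were 0.75 and 1.07, both beyond the -0.71 of spt6-1004, so a fall as large as in spt6-1004 could have gone unlisted. The risen genes have base means under 32.6, the lowest of any gene listed for spt6-S8A. They were taken to be outside the 431 genes, so spt6-S8A sets no limit on them. In spt6-S8E the limits, with the SEs of spt6-1004, were 1.78 for ADH2, 2.17 for PDC6, 2.07 for PDC5 and 1.5 for ADH4. For ADH2 and PDC6 the smallest difference from spt6-1004 was 1.18 and 1.41, with intervals starting at 0.03 and 0.01, which included 0 with the largest ratio of SEs (-0.18 and -0.25). Over the 23 genes listed for both spt6-S8A and spt6-1004, the SE of the first was 0.87 to 1.09 times that of the second. This bears on using one SE for another comparison, but those genes had base means of at least 32.6. For spt6-S8E and spt6-1004, 1 gene was listed for both. The SEs of the risen genes in spt6-S8E were thus not checked, and their limits and differences there are uncertain to that extent.

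**Figure D4:**
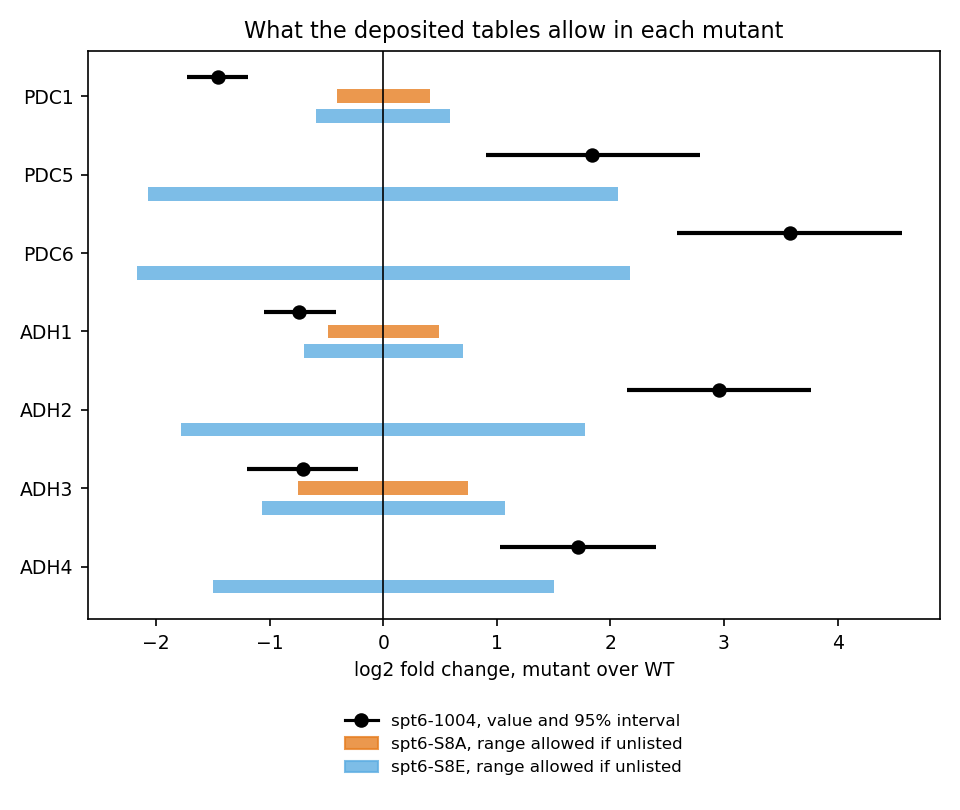
Log2 fold change of a mutant over WT (x axis) for the 7 genes called in spt6-1004. Black points and lines are the spt6-1004 values with 95% intervals. Orange and blue bars span the estimated changes that spt6-S8A and spt6-S8E could have without being listed, with the spt6-1004 SE. No orange bar is drawn where no limit could be set. The PDC1 interval in spt6-1004 lies outside both of its bars, while that of ADH3 overlaps both.

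Around these steps, 9 lists of pathway genes and regulators were read from the same comparison of spt6-1004 with WT. They hold 71 genes, of which 20 (28.2%) were called, 13 higher and 7 lower, against 12.2% of all genes adjusted. The lists were chosen with earlier results of these data known, so this share is no test of enrichment. Pyruvate kinase makes the pyruvate that Pdc1 consumes. In the authors' deposited table its main gene CDC19 was at -1.15 (SE 0.16, adjusted p = 8.92e-11, DESeq2) and its minor gene PYK2 was not listed. Of 10 genes for other uses of pyruvate, such as the pyruvate dehydrogenase complex and the mitochondrial pyruvate carrier, 1 was called. That count is near the 12.2% of all genes adjusted and is no result about the list. The called gene was PYC1, a pyruvate carboxylase gene, which the authors' deposited table has at -0.78 (SE 0.23). The 5 genes of the pyruvate dehydrogenase complex and the 3 of the carrier were not listed.

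Acetaldehyde can also be oxidised to acetate by aldehyde dehydrogenases and activated to acetyl-CoA. Of the 7 genes for this, 3 were higher and 2 lower in spt6-1004, against 5.63% and 6.62% of all genes adjusted. ALD3 was at 3.48 (SE 0.49), ALD2 at 1.75 (SE 0.48) and the mitochondrial ALD4 at 0.76 (SE 0.27) in the authors' deposited table. ALD2 and ALD3 are neighbouring near-copies whose reads may be shared. ALD6, the main cytosolic gene on glucose, was at -1.41 (SE 0.25), and ACS2, the acetyl-CoA synthetase gene used on glucose, at -1.72 (SE 0.33) in the authors' deposited table. ALD5 and ACS1 were not listed. As with PDC and ADH, the called genes of this list that are used on glucose were lower. Of the genes of the 9 lists, the authors' deposited table for spt6-S8A held ALD6, at -0.76 (SE 0.23, adjusted p = 0.039, DESeq2), and no other.

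Among 9 other dehydrogenase, reductase and keto acid decarboxylase genes, 3 were higher and 0 lower in spt6-1004. Of all genes adjusted, 5.63% were called higher and 6.62% lower. GRE2, a methylglyoxal reductase gene, was at 3.52 (SE 0.44), ARI1, an aldehyde reductase gene, at 1.43 (SE 0.42) and BDH1, the butanediol dehydrogenase gene, at 1.1 (SE 0.39), all per the authors' deposited table. ADH6, ADH7, SFA1, BDH2, THI3 and ARO10 were not listed, which does not show that they were unchanged.

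The regulators of ADH2 were mostly unlisted. Of 9 genes, 2 were higher and 0 lower in spt6-1004, against 5.63% and 6.62% of all genes adjusted. In the authors' deposited table CAT8, an activator of gluconeogenic genes and of ADH2, was at 1.85 (SE 0.46, adjusted p = 0.000915, DESeq2, base mean 7.92). The authors' deposited table has MIG2, a repressor induced by glucose, at 1.47 (SE 0.52, adjusted p = 0.0381, DESeq2, base mean 3.75). ADR1, SNF1, SNF4, MIG1, REG1, GLC7 and HXK2 were not listed. Of 11 other targets of the ADH2 activator Adr1, 4 were higher and 0 lower in spt6-1004. The shares of all genes adjusted were again 5.63% and 6.62%. FOX2 was at 1.69 (SE 0.47, base mean 6.75), POT1 at 1.56 (SE 0.47, base mean 1.0) and PXA1 at 1.89 (SE 0.50, base mean 4.83) in the authors' deposited table. All of these act in fatty acid oxidation in peroxisomes, and the remaining gene is ALD4, given above. ADH2 had a larger value than any of the other 4 targets.

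Of 5 activators of PDC1 and ADH1, 1 was called in spt6-1004, against 12.2% of all genes adjusted. A single call in so short a list is no result about the list. The authors' deposited table has GCR1, an activator of glycolytic genes, at -0.95 (SE 0.29, adjusted p = 0.0149, DESeq2). PDC2, GCR2, RAP1 and TYE7 were not listed. Of 11 zinc genes, 2 were higher and 1 lower, against 5.63% and 6.62% of all genes adjusted. ZRT1, the high-affinity zinc transporter gene that responds to zinc scarcity as ADH4 does, was at 2.20 (SE 0.53, base mean 2.67) per the authors' deposited table. FET4, a low-affinity metal transporter gene, was at 1.36 (SE 0.43, base mean 9.17) per the authors' deposited table. ZRC1, a vacuolar zinc transporter gene, was at -1.08 (SE 0.33), and the activator gene ZAP1 was not listed in the authors' deposited table. Of 9 thiamine genes, which bear on the cofactor of pyruvate decarboxylase, 1 was called. That count is near the 12.2% of all genes adjusted and is no result about the list. The called gene was PHO3, a phosphatase gene, which stood at -1.66 (SE 0.27) per the authors' deposited table.

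**Figure D5:**
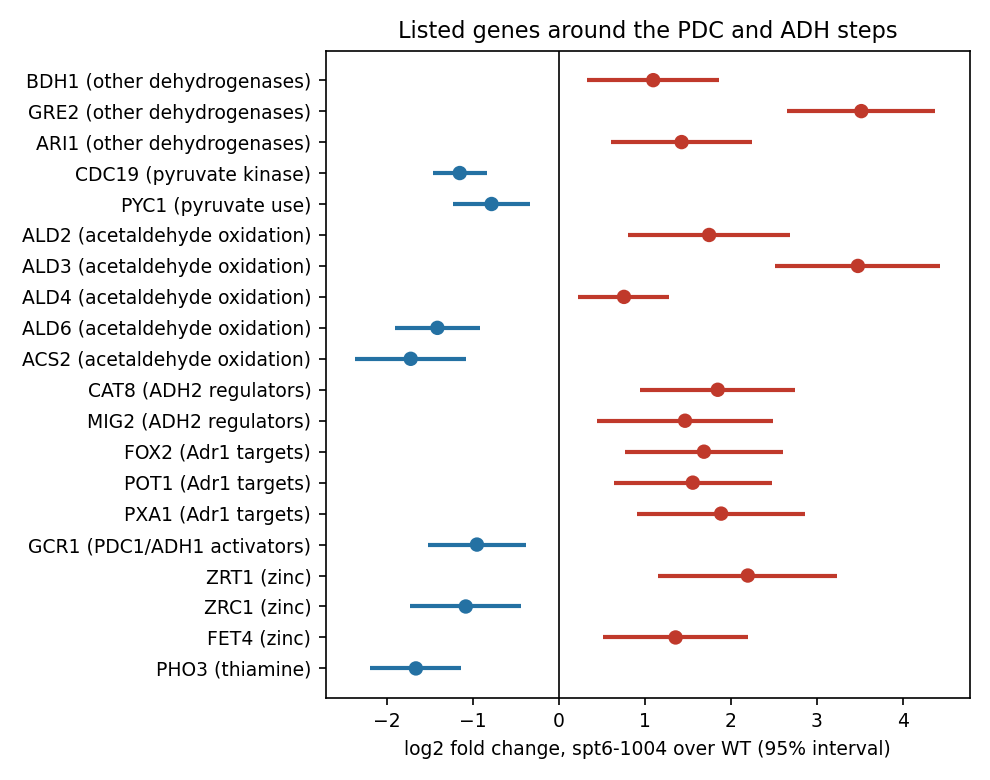
Log2 fold change of spt6-1004 over WT (x axis) with 95% intervals for the 20 called genes of the 9 lists, each once, with its list in parentheses. Red marks higher and blue lower; GRE2 at 3.52 and ALD3 at 3.48 are farthest to the right and ACS2 at -1.72 farthest to the left.

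Of the 16 protein-coding genes next to a PDC or ADH gene, 3 (18.8%) were called in spt6-1004, against 12.2% of all genes adjusted. CTT1, the cytosolic catalase gene, starts on the other side of the 1652 bp that separate it from PDC6 and is transcribed away from it. The authors' deposited table put it at 3.39 (SE 0.42, adjusted p = 5.39e-14, DESeq2), next to 3.58 for PDC6. ZRT1 is the next protein-coding gene after ADH4, 4670 bp away on the same strand, and both were higher. For TRX1, a thioredoxin gene 376 bp downstream of PDC1, the authors' deposited table gave -1.15 (SE 0.41, adjusted p = 0.0475, DESeq2). Both neighbours of ADH1, of ADH2, of ADH3, of PDC5 and of ADH5 were unlisted.

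The genes most like the extremes of the family were sought by the smallest difference in log2 fold change, in the 1 comparison of spt6-1004 with WT, among called genes with a base mean within 2-fold. For PDC6, out of 183 such genes, they were PAU23 at 3.54 (SE 0.49), GRE2 at 3.52 and AMS1, a vacuolar mannosidase gene, at 3.50 (SE 0.46), all per the authors' deposited table. PDC1 had 2 called genes within that range of level. One was TDH3, a glyceraldehyde-3-phosphate dehydrogenase gene of glycolysis, at -0.80 (SE 0.17), and the other was HSP82, an Hsp90 chaperone gene, at 2.46 (SE 0.18), both per the authors' deposited table. At this level TDH3 was thus the called gene that shared the direction of PDC1.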

How the data were processed

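RNA of 4 genotypes, 3 libraries each, was analysed from the authors' tables of 3 comparisons with WT; 19 chromatin immunoprecipitation and input samples were not analysed here. The submitters' processing notes name STAR 2.5.2b, Salmon 0.8.1, SAMtools 1.3.1, bedtools 2.26, cutadapt 1.10 and DESeq2 1.14.1, and build sacCer3, without saying what each was used for. Per the labels' protocols, ribosomal RNA was depleted, spike-in RNA was added after that, and libraries were stranded and paired-end. Per the file headers, each row holds a base mean and a Wald statistic (both treated as scores), a log2 fold change with its SE, and a p-value with its adjusted p-value.

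Each deposited row has an adjusted p-value under 0.05. The base mean times 12 was whole in all rows (tolerance 1e-06), so it covers all 12 libraries, and its unit and the depth per library are unknown. Whole totals in all rows would not arise if DESeq2 had divided its input by size factors other than 1. Whether libraries were scaled before that step, and whether the spike-ins were used for it, is unknown. Differences in depth may thus remain, and another scaling would shift all fold changes of a comparison together. The numbers of genes adjusted (5668, 431 and 5668) were recovered by inverting the Benjamini-Hochberg formula, which gave back all deposited values; for spt6-S8E this rests on 1 row. The recovery was tested on simulated sets of 5668 genes, with SEs drawn from the genes called in spt6-1004. Fewer genes were changed in these sets than were called in spt6-1004. The short lists of spt6-S8A and spt6-S8E were not simulated. Two-sided p-values are the authors', from DESeq2. Intervals are 95% normal intervals from deposited SEs. Names, positions and coding lengths come from RefSeq genes of R64, for which sacCer3 is another name; all 8 genes and all list genes matched. Python 3.11.15, pandas 2.3.3 and scipy 1.17.1 were used.

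The genes, the lists and the tests were chosen with earlier results of these data known. Named genes are the 8 members, each called gene of the lists, called neighbours, and the 3 called genes closest to the highest and the lowest member. Alternatives were an adjusted p under 0.01, a log2 fold change of at least 1, a base mean of at least 100, a Bonferroni adjustment, correlated errors and a larger SE.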

Additional observations from a re-analysis of the deposited data

How the results depend on the processing

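No paired analysis was possible because the tables hold comparisons without values per library; leaving out each replicate was not run for the same reason. The 4 higher and 3 lower calls in spt6-1004 became 4 higher and 1 lower (PDC1) when a change of at least 1 on the log2 scale was required. At a base mean of at least 100 no higher gene was left (0) and 2 lower ones were. At an adjusted p under 0.01, ADH3 was lost (0.038). Under a Bonferroni adjustment over 5668 genes, the DESeq2 calls of PDC5 (adjusted p = 0.75) and ADH3 (adjusted p = 1) were lost. With errors correlated by 0.5 the difference of 1.12 between ADH2 and PDC5 had an interval excluding 0, and with -0.5 that of 1.25 between ADH2 and ADH4 no longer did; the other 20 pairs kept their side in each setting. The largest ratio of SEs, 1.09 from spt6-S8A, multiplies every limit in spt6-S8A and spt6-S8E alike. For PDC1 it gave limits of 0.45 and 0.65. In 2 settings chosen after seeing the data, the lowest spt6-1004 mean was 379 and 400.0 for PDC1 and 119 and 127 for ADH1. Adjusting spt6-S8A over 5668 genes was not run, since the p-values of genes outside the 431 are not known. Unknown depth limits what the low levels of PDC5 and PDC6 can show.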
